A study of Mus musculus with 9 samples.

Results

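To examine whether proximal tubular cells of diabetic mice carried a transcript signature of tubular injury, 10 genes that are widely used as markers of injured or dedifferentiated tubules were followed in sorted proximal tubular cells: Havcr1, Lcn2, Vcam1, Krt20, Krt8, Krt18, Sox9, Cd44, Spp1 and Clu. They were picked by gene symbol from the 24421 genes of the expression table, and all 10, protein-coding genes, were listed there and passed the filter on low counts that left 15583 genes for testing. RNA was sequenced from 9 mice, 3 per group. *db/m* mice, heterozygous for the leptin receptor mutation, were the non-diabetic controls. *db/db* mice, homozygous for it and diabetic, received vehicle, and *db/db*-dapa mice received dapagliflozin, an inhibitor of the glucose transporter SGLT2, at 1.5 mg/kg/day in the drinking water for 8 weeks. All 9 mice, controls included, carried SLC34a1GCE, which places a tamoxifen-inducible Cre under the promoter of the proximal tubular phosphate transporter gene Slc34a1, and the Cre-dependent reporter R26tdTomato, and all were given tamoxifen at 8 weeks of age. The labels give the strain as C57BL/6 and the tissue as kidney, and the study's methods state that tdTomato-positive, DAPI-negative cells were sorted from enzyme-digested cortex. The label therefore follows cells that expressed Slc34a1 when tamoxifen was given, and their descendants.

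Proximal tubular cells reabsorb most of the filtered glucose, amino acids and phosphate. When they are injured they flatten, lose transporters of the brush border, and switch on genes of an embryonic or repairing epithelium. Havcr1 encodes KIM-1, a receptor on the apical surface with which injured cells take up dying neighbours. Lcn2 encodes NGAL, a secreted protein that binds iron-carrying siderophores. Vcam1 and Cd44 encode adhesion molecules, Vcam1 a ligand of leukocyte integrins and Cd44 a receptor for hyaluronan and osteopontin. Keratins 8 and 18 pair into the intermediate filaments of simple epithelia, and keratin 20 is a keratin of intestinal and urothelial surface cells that also appears in injured tubules. Sox9 is a transcription factor of nephron development that returns in regenerating tubules. Spp1 encodes osteopontin, a secreted integrin ligand, and Clu encodes clusterin, a secreted chaperone.

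The estimated counts of a library summed to 6571572, 5754910 and 4817721 in the *db/m* mice, to 2733349, 4951113 and 7635669 in the *db/db* mice, and to 6981225, 7626107 and 9033123 in the *db/db*-dapa mice. Levels are given as CPM, the count of a gene scaled to the total of its library after TMM scaling. A count of 3, taken here as the floor for a low value, corresponded to 1.02 CPM in the shallowest library, *db/db* replicate 1, and to 0.339 CPM in the deepest, *db/db*-dapa replicate 3. Within a group, the log2 profiles of the mice correlated across genes with Pearson's r of 0.970 to 0.987 (*db/m*), 0.955 to 0.975 (*db/db*) and 0.977 to 0.992 (*db/db*-dapa). The *db/db* mice did not lie together. On the first principal component, which held 41.8% of the variance, *db/db* replicate 3 was at 44.97, beside *db/db*-dapa replicates 2 and 3 at 36.7 and 45.9, while the other 6 mice lay between -49.5 and -1.1. Marker values are therefore given mouse by mouse. Without *db/db* replicate 3, log2 fold changes of *db/db* against *db/m* given below moved. They went from -0.24 to 0.019 for Krt8, from -0.56 to -0.27 for Clu and from -0.70 to -0.36 for Krt18. Lcn2 went from -1.08 to -0.44, Vcam1 from -0.44 to -0.20 and Cd44 from 0.89 to 1.43. None of these was called either way, whereas Spp1 went from 0.90 to 1.17 and was then called.

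The sorted cells carried the transcripts of differentiated proximal tubule at high levels. Slc34a1 itself, the gene whose promoter drove the label, was at 3819 ± 312 CPM in *db/m*, 5110 ± 954 in *db/db* and 4549 ± 83.5 in the *db/db*-dapa mice (mean ± SD, n = 3 each), and Slc5a2, which encodes SGLT2, was at 913 ± 160, 1327 ± 710 and 1126 ± 269 CPM. Transcripts of other cells were present at lower levels and are described at the end.

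Most of the injury markers were scarce in every group. To compare levels between genes, CPM were divided by the exonic length of each gene in kilobases. Osteopontin led by far, with Spp1 at 660 CPM per kb on average over the 9 mice, which placed it at percentile 99.6 of the 14944 tested genes with a length. Krt8 followed at 200 CPM per kb (percentile 98.2), then Clu at 44.9 (percentile 92.2) and Krt18 at 19.5 (percentile 82.9). The other 6 markers were far lower, between 1.67 CPM per kb for Sox9 (percentile 35.6) and 0.371 for Lcn2 (percentile 18.3), with Krt20 at 1.53, Vcam1 at 1.02, Cd44 at 0.856 and Havcr1 at 0.781. Spp1 was above Krt8, Krt8 above Clu, Clu above Krt18 and Krt18 above Sox9 in 9 of 9 mice, although the ranges of Clu and Krt18 over mice overlapped. The lower 6 could not be ordered, since neighbours exchanged places between mice and their ranges overlapped. Spp1, Krt8 and Clu together made up 94.0% to 98.0% of the summed CPM of the 10 markers in a mouse. Some reads may belong to neighbours, since exons of Spp1 share 309 bases with Gm42793 on the same strand. Exons of Krt8 and Vcam1 share 101 and 61 bases with Gm36026 and Gm43109 on the opposite strand. The libraries were stranded, and whether the counting used the strand is not given. The highest mouse exceeded the lowest 3.11-fold for Clu, 3.13-fold for Spp1, 3.18-fold for Krt8 and 3.51-fold for Krt18. For the scarce markers it was 6.12-fold for Vcam1, 9.18-fold for Cd44, 14.96-fold for Lcn2, 23.1-fold for Havcr1 and 32.0-fold for Sox9. Krt20 was at 0 in 1 mouse. The lowest mouse held 1 count for Lcn2 and for Havcr1 and 3 for Sox9, at or under the floor, so counting error enlarges such ratios. They cannot tell whether the scarce markers varied more between mice.

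**Figure D1:**
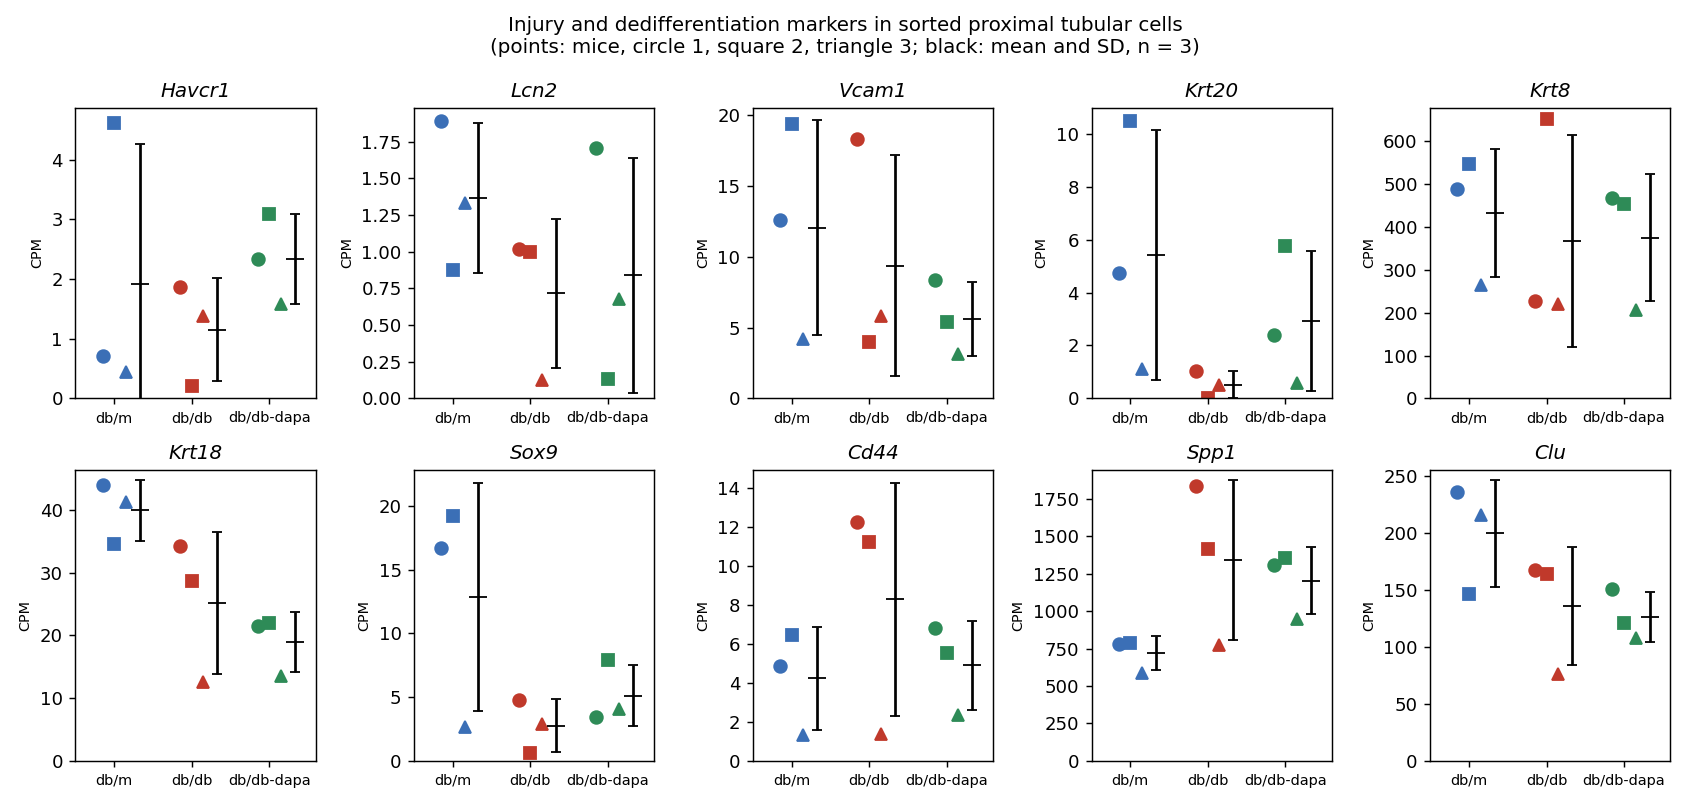
Level of each of the 10 markers in CPM (linear axis from 0, 1 panel per gene) in the 3 groups of mice. Circles, squares and triangles are replicates 1, 2 and 3, horizontal lines are means and bars are SDs of 3 mice, cut at 0 where they would reach below it. Krt20 was at or under 1.02 CPM in the 3 *db/db* mice, and Spp1 was at or above 950 CPM in the 3 *db/db*-dapa mice.

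None of the 10 markers passed the test in any comparison, at an adjusted p below 0.1 and an absolute log2 fold change above 1 in edgeR's quasi-likelihood test (Benjamini-Hochberg adjustment over all genes tested). Between *db/db* and *db/m*, 194 of 15583 genes were called, 1.24% (0.545% higher and 0.699% lower), so that a list of 10 genes with none called does not stand apart from that background. That count ran from 85 without *db/m* replicate 1 to 230 without *db/db* replicate 3, and was 115 when only those groups were fitted. Of the markers, 2 were higher and 8 lower in *db/db*, with a median log2 fold change of -0.63 against 0.02 over all genes tested. At an unadjusted p below 0.05 there were 3 markers, Spp1 higher and Krt20 and Sox9 lower, where 13.7% of all genes reached that level. The 3 *db/db* mice lay wholly below the 3 *db/m* mice for 2 markers, Krt20 and Krt18, and wholly above for none, where 16.4% of all genes had groups that did not overlap, 8.12% lower and 8.23% higher. Between *db/db*-dapa and *db/m*, 164 genes were called (1.05%, of which 0.578% higher and 0.475% lower). There 3 markers were higher and 7 lower, with a median of -0.69 against -0.02 over all genes, and 3 had an unadjusted p below 0.05, Spp1 higher and Krt18 and Clu lower, against 18.2% of all genes. Groups did not overlap for Spp1, higher, and Krt18, lower, and for 28.2% of all genes, 14.5% higher and 13.8% lower. Between *db/db*-dapa and *db/db* no gene at all was called (0%), the lowest adjusted p being 0.854, while 808 genes had an unadjusted p below 0.05, DESeq2 called 13 genes and limma voom with sample weights called 449, none of them a marker. Without *db/db* replicate 3, edgeR called 272 genes in this comparison, again no marker. The count of 164 also rested on single mice, as it ran from 14 without *db/db*-dapa replicate 2 to 664 without *db/db* replicate 3, with Krt18 the marker called in the latter. Against *db/db*, 5 markers were higher in *db/db*-dapa and 5 lower, the median was -0.03 against -0.01 over all genes, and 1 marker, Krt20, had an unadjusted p below 0.05, against 5.19% of all genes. The groups overlapped for all 10 markers and were apart for 10.3% of all genes, 4.92% higher and 5.35% lower. The comparisons share mice, so they are not independent of each other.

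**Figure D2:**
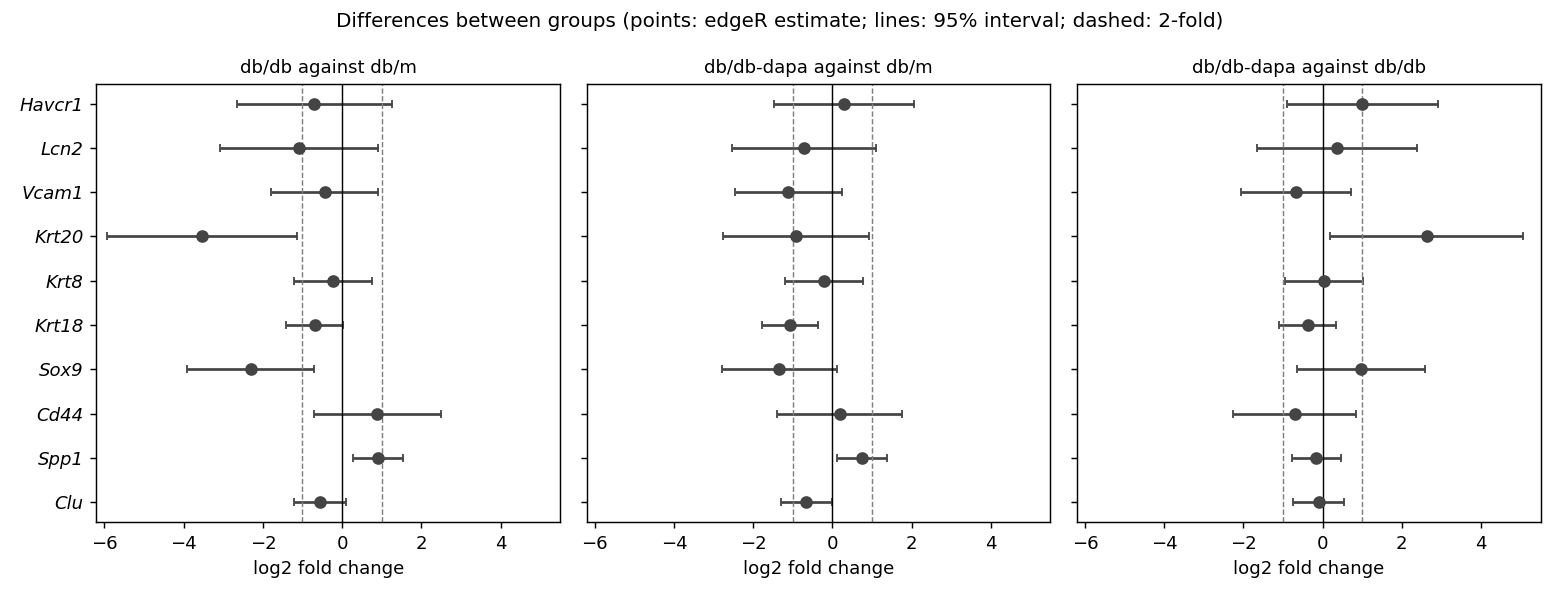
Log2 fold change of each marker in the 3 comparisons by edgeR (points), with its 95% interval (lines). The dashed lines mark a log2 fold change of 1 in either direction. The intervals of Krt20, Sox9 and Spp1 in *db/db* against *db/m* lie to 1 side of 0. So do those of Krt18, Spp1 and Clu in *db/db*-dapa against *db/m*, and that of Krt20 in *db/db*-dapa against *db/db*. No marker passed the adjusted threshold.

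The largest differences concerned a pair of scarce markers, Krt20 and Sox9, and they ran toward lower levels in *db/db*. Krt20 (chromosome 11, 99428403 to 99438150, minus strand, in GRCm38) was at 4.72, 10.5 and 1.11 CPM in the *db/m* mice, at 1.02, 0 and 0.505 in *db/db*, and at 2.41, 5.78 and 0.566 in *db/db*-dapa. The 3 *db/db* mice were all below the lowest *db/m* mouse, although only narrowly below *db/m* replicate 3, and *db/db*-dapa replicate 3 lay within the *db/db* range. In summed counts this was 7 in *db/db* against 95 in *db/m*, a depth-adjusted ratio of 12.98 with an exact 95% interval of 6.06 to 33.2 that covers counting error only. The edgeR log2 fold change was -3.55 ± 1.09 (SE, 95% interval -5.95 to -1.15), with an adjusted p of 0.187 in edgeR's quasi-likelihood test. In *db/db*-dapa, Krt20 lay above *db/db* by a log2 fold change of 2.63 ± 1.11 (SE, interval 0.19 to 5.06), with groups that overlapped and an adjusted p of 0.854 by edgeR, while against *db/m* its log2 fold change was -0.92 ± 0.84. Single mice weighed heavily. Without *db/m* replicate 2, the highest for Krt20, the log2 fold change against *db/m* was -2.67 in *db/db* and -0.0436 in the *db/db*-dapa mice, and without *db/db*-dapa replicate 2 the one against *db/db* was 1.65. Leaving out each mouse in turn, these 3 log2 fold changes ranged from -4.13 to -2.67, from -1.89 to -0.0436 and from 1.65 to 3.21.

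Sox9 (chromosome 11, 112782224 to 112787760, plus strand) followed the same order of group means. It was at 16.7, 19.2 and 2.66 CPM in *db/m*, at 4.76, 0.600 and 2.90 in *db/db*, and at 3.41, 7.88 and 4.07 in *db/db*-dapa. As with Krt20, *db/m* replicate 3 was far below the other *db/m* mice, and here it lay within the *db/db* range, so the groups overlapped. The log2 fold change was -2.30 ± 0.73 (SE, interval -3.91 to -0.70) in *db/db* against *db/m*, with an adjusted p of 0.203 by edgeR, and -1.34 ± 0.66 in *db/db*-dapa against *db/m*, with an adjusted p of 0.302. The outcome against *db/m* depended on the tool, as DESeq2 called Krt20 (adjusted p = 0.0263) and Sox9 (adjusted p = 0.0443) lower in *db/db*. Without *db/m* replicate 3, edgeR called Sox9 lower in *db/db* at a log2 fold change of -2.78 (adjusted p = 0.0965). Neither tool called either gene between *db/db*-dapa and *db/db*.

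The stretch of 250 bases before the transcription start is shown for the markers at both ends of the *db/db* against *db/m* range, Krt20 (lowest) and Spp1 (highest). Both are 5′ to 3′ on the strand of the gene, from RefSeq on GRCm38.p6, at chr11:99438154-99438403 (minus strand) and chr5:104434861-104435110 (plus strand). Capitals mark matches, on either strand, to sets of letters that were searched for: TGANTCA (the AP-1 site), the consensus site of NF-kB, GGAATG (the core recognised by TEAD factors, the DNA-binding partners of YAP), TATAAA (the TATA box) and GGGCGG (the GC box).
Krt20: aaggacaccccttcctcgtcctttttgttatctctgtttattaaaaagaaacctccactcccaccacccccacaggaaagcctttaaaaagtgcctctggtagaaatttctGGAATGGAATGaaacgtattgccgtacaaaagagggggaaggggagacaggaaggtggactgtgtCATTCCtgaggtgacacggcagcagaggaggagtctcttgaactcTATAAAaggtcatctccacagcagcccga
Spp1: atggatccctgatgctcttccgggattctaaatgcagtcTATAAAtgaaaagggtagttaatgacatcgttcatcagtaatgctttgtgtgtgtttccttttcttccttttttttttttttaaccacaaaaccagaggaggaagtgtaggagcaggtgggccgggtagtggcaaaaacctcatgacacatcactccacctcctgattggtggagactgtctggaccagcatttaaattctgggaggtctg
The Krt20 window held the TEAD letters at 139, 134 and 74 bases before the start, the first pair sharing 1 base, and TATAAA at 29 bases. Of 32851 mouse promoter windows of the same length, 12.6% held the TEAD letters, 0.0913% held them at least 3 times, and 12.4% held TATAAA. The Spp1 window held TATAAA at 211 bases before the start and no other match. RefSeq windows were at hand for 7 of the 10 markers, and among the other 5, only Lcn2 held a match, a GC box at 94 bases before the start, letters that 32.7% of all windows hold. The AP-1 letters stood in 6.75% of all windows and the NF-kB site in 0.356%. Such matches describe these letters only and not binding.

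Of the keratin partners, Krt18 had lower values in both *db/db* groups than in *db/m* without passing the test, and Krt8 overlapped between all groups. Krt8 (chromosome 15, 101996698 to 102004482, minus strand) was at 490, 547 and 264 CPM in *db/m*, at 228, 652 and 220 in *db/db*, and at 467, 454 and 205 in *db/db*-dapa. Each group held mice at 264 CPM or below and mice at 454 CPM or above, and the groups overlapped throughout. Its log2 fold changes were -0.24 ± 0.45 (SE, interval -1.23 to 0.75) in *db/db* and -0.21 ± 0.45 (interval -1.19 to 0.78) in *db/db*-dapa, both against *db/m*. Krt18, which lies beside Krt8 (chromosome 15, 102028180 to 102032027, plus strand), was at 43.9, 34.5 and 41.3 CPM in *db/m*, at 34.3, 28.6 and 12.5 in *db/db*, and at 21.4, 22.1 and 13.5 in *db/db*-dapa. All 6 *db/db* and *db/db*-dapa mice were below the lowest *db/m* mouse, *db/db* replicate 1 by a narrow margin. The log2 fold change of Krt18 was -0.70 ± 0.33 (SE, adjusted p = 0.378 by edgeR) in *db/db* and -1.07 ± 0.32 (adjusted p = 0.168) in *db/db*-dapa. The latter was called by DESeq2 (adjusted p = 0.0529), and by edgeR when *db/db* replicate 3 was left out (log2 fold change -1.07, adjusted p = 0.0232) or when only those 2 groups were fitted (adjusted p = 0.0338). Per kilobase, the ratio of Krt8 to Krt18 was 8.18, 11.6 and 4.70 in *db/m*, 4.88, 16.7 and 12.9 in *db/db*, and 16.0, 15.1 and 11.2 in *db/db*-dapa. The Krt8 values carry a reservation, because its estimated counts were not whole in 4 of 9 mice, as happens when reads are shared with another copy.

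Among the secreted markers, Spp1 was the one with higher levels in both *db/db* groups. Spp1 (chromosome 5, 104435118 to 104441050, plus strand) was at 783, 789 and 587 CPM in *db/m*, at 1836, 1416 and 772 in *db/db*, and at 1307, 1354 and 950 in *db/db*-dapa. All 3 *db/db*-dapa mice exceeded every *db/m* mouse, whereas *db/db* replicate 3 lay within the *db/m* range. The log2 fold change against *db/m* was 0.90 ± 0.29 (SE, interval 0.26 to 1.53, adjusted p = 0.207 by edgeR) in *db/db* and 0.74 ± 0.29 (interval 0.11 to 1.37, adjusted p = 0.230) in *db/db*-dapa. Without *db/db* replicate 3, edgeR called Spp1 higher in *db/db* at 1.17 (adjusted p = 0.0245). The difference of *db/db*-dapa from *db/db* was -0.16 ± 0.29 (interval -0.78 to 0.47). Spp1 made up 49.1% to 52.4% of the summed CPM of the 10 markers in the *db/m* mice, 62.1% to 79.6% in *db/db* and 66.3% to 73.7% in *db/db*-dapa.

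Clu and Lcn2, the other secreted markers, were not higher in the diabetic mice. Clu (chromosome 14, 65968483 to 65981547, plus strand) was at 237, 147 and 216 CPM in *db/m*, at 168, 165 and 76.2 in *db/db*, and at 151, 121 and 108 in *db/db*-dapa. The lowest *db/m* mouse, replicate 2, lay among the *db/db* values and just below the highest *db/db*-dapa mouse. Against *db/m*, the log2 fold change was -0.56 ± 0.29 (SE) in *db/db* and -0.66 ± 0.29 in the *db/db*-dapa mice, with adjusted p of 0.433 and 0.270 by edgeR. Lcn2 (chromosome 2, 32384633 to 32388252, minus strand) gave 12, 5 and 6 counts in *db/m*, 3, 5 and 1 in *db/db*, and 12, 1 and 6 in *db/db*-dapa. With at most 12 counts in a mouse, a change in Lcn2 would have had to be large to be detectable at this depth, and the 95% interval of its log2 fold change in *db/db* against *db/m* ran from -3.08 to 0.92.

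The surface markers Havcr1, Vcam1 and Cd44 were low and varied widely between mice of one group. Havcr1 (chromosome 11, 46735080 to 46779578, plus strand) was at 0.709, 4.62 and 0.444 CPM in *db/m*, at 1.87, 0.200 and 1.39 in *db/db*, and at 2.34, 3.09 and 1.58 in *db/db*-dapa. A single control, *db/m* replicate 2, was the highest of the 9 mice, while the lowest was *db/db* replicate 2 with 1 count. The log2 fold change in *db/db* against *db/m* was -0.71 ± 0.89 (SE, interval -2.66 to 1.25), and it turned to 1.06 when *db/m* replicate 2 was left out. In *db/db*-dapa it was 0.29 ± 0.81 against *db/m* and 0.9995 ± 0.87 against *db/db*, and leaving out *db/m* replicate 2 moved the former to 2.05. The Havcr1 counts were not whole in 5 of 9 mice, so they too may include shared reads.

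Vcam1 (chromosome 3, 116109949 to 116129688, minus strand) was at 12.6, 19.4 and 4.22 CPM in *db/m*, at 18.4, 4.002 and 5.81 in *db/db*, and at 8.38, 5.38 and 3.17 in *db/db*-dapa. The *db/m* and *db/db* groups each held high and low mice, and the *db/db*-dapa mice lay within their range except for replicate 3, the lowest of all. Against *db/m*, fitted log2 fold changes were -0.44 ± 0.62 (SE) in *db/db* and -1.11 ± 0.62 (interval -2.46 to 0.24) in *db/db*-dapa, with adjusted p of 0.785 and 0.342 by edgeR. Cd44 (chromosome 2, 102811141 to 102901665, minus strand) was at 4.88, 6.46 and 1.33 CPM in *db/m*, at 12.2, 11.2 and 1.39 in *db/db*, and at 6.81, 5.51 and 2.38 in *db/db*-dapa. *db/db* replicates 1 and 2 were the highest of all mice and *db/db* replicate 3 was next to the lowest. The log2 fold change in *db/db* against *db/m* was 0.89 ± 0.73 (SE, interval -0.71 to 2.49), and in *db/db*-dapa against *db/db* it was -0.71 ± 0.71. The latter moved to -1.25 without *db/db* replicate 3 and to -0.32 without *db/db* replicate 1.

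The markers varied between the mice of every group. *db/m* replicate 2 was the highest mouse for 4 of the 10 markers and *db/m* replicate 1 for 3. *db/db* replicate 3 was among the lowest 3 mice for 8 markers, and *db/db*-dapa replicate 3 for 7. To ask which markers were high in the same mice, log2(CPM + 1) was correlated over the 9 mice for all 45 pairs, with exact two-sided permutation p-values adjusted by Benjamini-Hochberg. Of these, 37 coefficients were positive and 8 negative, with a median r of 0.30, and 3 pairs passed an adjusted p of 0.1. Krt18 and Clu had the highest coefficient (r = 0.926, exact permutation p = 0.000146, adjusted p = 0.00657, rho = 0.867 with p = 0.00451), which was 0.841 without the 2 mice farthest from the median and 0.911 for deviations from the group means. Krt20 and Sox9 came next (r = 0.897, exact permutation p = 0.000929, adjusted p = 0.0209, rho = 0.800 with p = 0.0138), with 0.861 without the 2 extreme mice and 0.832 within groups. Lcn2 and Clu followed (r = 0.834, exact permutation p = 0.00556, adjusted p = 0.0834, rho = 0.883 with p = 0.00308), with 0.739 and 0.786 in the same checks. Lcn2 had only 1 to 12 counts in a mouse, so part of its values lay at or under the floor. With 0.1 in place of 1 added to the CPM, 2 pairs passed. Krt8 and Krt18, whose proteins pair, were not called (r = 0.426, exact permutation p = 0.251, adjusted p = 0.753). Cd44 and Spp1, receptor and ligand, had r = 0.809 (exact permutation p = 0.0112, adjusted p = 0.126) and 0.952 for deviations from the group means. The values of a pair come from the same library, so its depth and its content of other cells enter both.

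**Figure D3:**
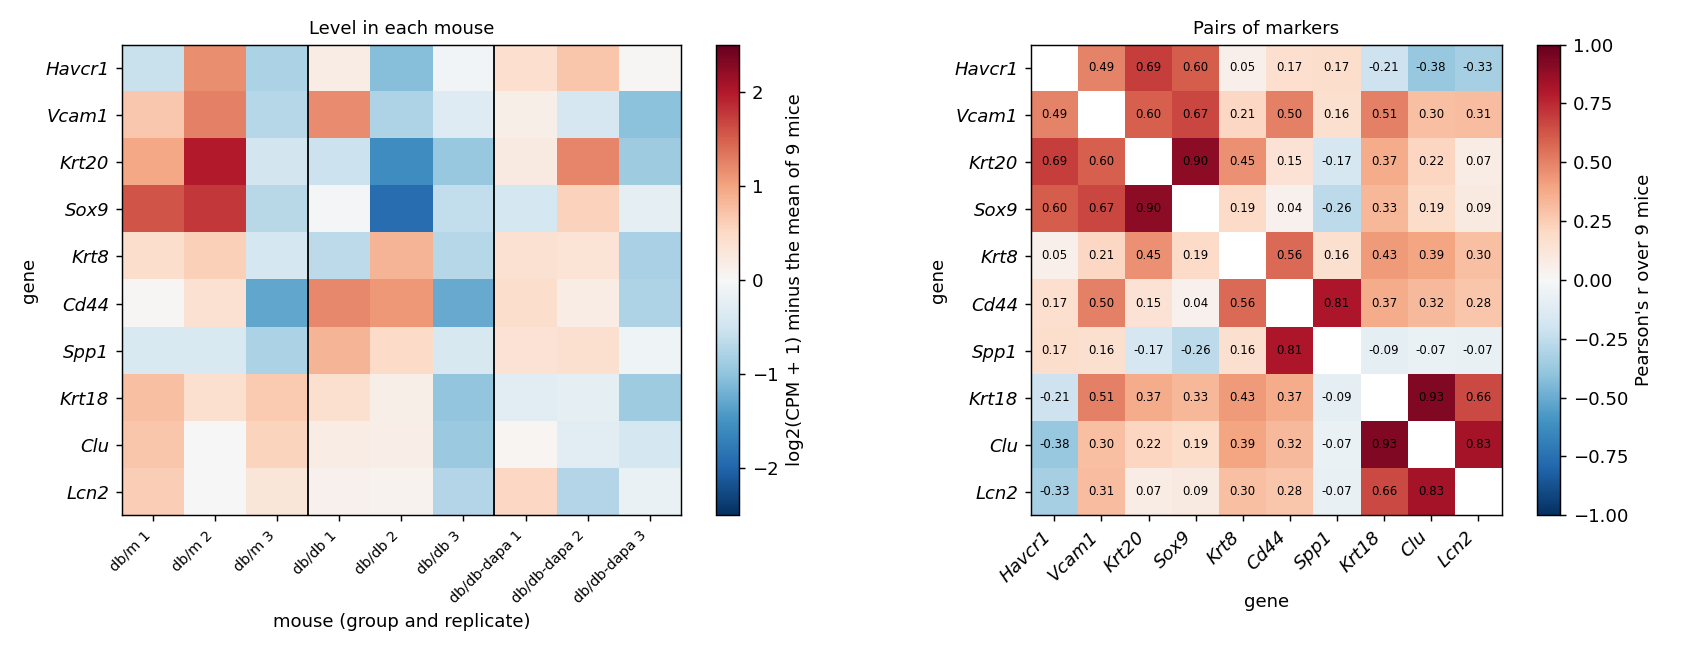
Left, log2(CPM + 1) of each marker in each mouse as a difference from that marker's mean over the 9 mice (colour scale in log2 units). Right, Pearson's r of log2(CPM + 1) over the 9 mice for each pair of markers, where Krt18 with Clu (0.926) and Krt20 with Sox9 (0.897) are the highest.

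The genes most alike to each marker over the 9 mice, among 10515 tested genes with a mean of at least 5 CPM, are given as descriptions with no test. For Sox9 the closest 3 included 2510039O18Rik (r = 0.925) and Yap1 (r = 0.912), the coactivator that works through TEAD factors. For Krt20 they were Gm6682 (r = 0.941), Glod4 (r = 0.933) and Csf1 (r = 0.929), the macrophage growth factor. Cd44 was most alike to Plek (r = 0.951) and Mpeg1 (r = 0.936), both genes of blood-derived cells, and to Med30 (r = 0.936). Spp1 was closest to Stab2 (r = 0.936), and Havcr1 to Galnt3 (r = 0.933). The coefficients were higher still for Clu, closest to the RNA polymerase subunit gene Polr2h (r = 0.991), for Vcam1, closest to D17H6S56E-5 (r = 0.980), and for Krt18, closest to Nol7 (r = 0.975). For Krt8 the first was E230016M11Rik (r = 0.961) and the third S100a10 (r = 0.946), and for Lcn2 the first was Surf1 (r = 0.945).

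In a wider list of genes of injury and repair, the calls between *db/db* and *db/m* were fibrinogen chains. Of its 42 genes, 40 were tested, and 2 passed the test in that comparison, both higher, where 1.24% of all genes passed and 0.545% were higher. The median log2 fold change was 0.08 over the list and 0.02 over all genes. Fgg, the fibrinogen gamma chain, was at 6.46, 4.71 and 4.88 CPM in *db/m*, at 12.9, 24.6 and 16.7 in *db/db*, and at 18.7, 16.5 and 18.1 in *db/db*-dapa. All 6 *db/db* and *db/db*-dapa mice lay above every *db/m* mouse, and Fgg rose by a log2 fold change of 1.76 ± 0.27 (SE, adjusted p = 0.0139 by edgeR) in *db/db* and of 1.72 ± 0.27 (adjusted p = 0.0214) in *db/db*-dapa. Fga, the alpha chain, was at 7.40, 7.33 and 3.55 CPM in *db/m*, at 8.50, 37.8 and 19.2 in *db/db*, and at 28.7, 24.9 and 25.2 in *db/db*-dapa. It rose by 1.84 ± 0.45 (adjusted p = 0.0991 by edgeR) and 2.08 ± 0.44 (adjusted p = 0.0732) on the log2 scale. The beta chain, Fgb, was at most 3.41 CPM in any mouse and was not called.

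Between *db/db*-dapa and *db/m* the list gained a call in each direction, so that 3 of the 40 genes were higher and 1 lower, where 1.05% of all genes were called, 0.578% higher and 0.475% lower. Prom1, which encodes the progenitor marker CD133, was at 52.7 ± 10.98 CPM in *db/m*, 91.9 ± 24.7 in *db/db* and 106 ± 10.4 in the *db/db*-dapa mice (mean ± SD, n = 3). It rose by 1.014 ± 0.23 (SE, adjusted p = 0.0866 by edgeR) on the log2 scale in the last group, and its log2 fold change in *db/db* was 0.80 ± 0.23 (adjusted p = 0.157). Il34, a ligand of the macrophage CSF-1 receptor, was at 11.5, 15.5 and 16.0 CPM in *db/m*, at 4.08, 2.201 and 1.52 in *db/db*, and at 3.26, 1.18 and 0.226 in *db/db*-dapa. Every *db/m* mouse was above every other mouse, and in *db/db*-dapa Il34 fell by 3.23 on the log2 scale (SE 0.63, adjusted p = 0.0575 by edgeR). In *db/db* its log2 fold change was -2.55 ± 0.63, with an adjusted p that rounded to 0.1 by edgeR and just missed the threshold. No gene of the list was called between *db/db*-dapa and *db/db*, where the extremes were Fosl1, an AP-1 subunit (1.42 ± 0.91), and S100a6 (-1.46 ± 0.86). Igfbp7, a secreted binding protein and the most abundant gene of the list, was at 813 ± 68.2, 894 ± 287 and 877 ± 196 CPM, in the order *db/m*, *db/db*, *db/db*-dapa.

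Receptors and regulators of the markers were examined as a further list, and none of its 20 tested genes (of 22) passed in any comparison, which does not stand apart from the 1.24%, 1.05% and 0% of all genes called. It held the integrins that bind osteopontin and VCAM-1, enzymes and receptors of hyaluronan, receptors of lipocalin-2, and factors of the NF-kB and YAP pathways. Megalin (Lrp2), an endocytic receptor that takes up lipocalin-2 and the most abundant of the list, was at 2009, 2226 and 1599 CPM in *db/m*, at 2182, 1646 and 5281 in *db/db*, and at 2531, 3719 and 4974 in *db/db*-dapa. The highest of these was *db/db* replicate 3, and its log2 fold change in *db/db* against *db/m* was 0.64 ± 0.39 (adjusted p = 0.507 by edgeR). The other lipocalin-2 receptor, Slc22a17, was at 32.7 ± 8.96 CPM in *db/m*, 20.8 ± 5.83 in *db/db* and 20.8 ± 2.65 in the *db/db*-dapa mice, with log2 fold changes of -0.67 ± 0.25 and -0.65 ± 0.25 against *db/m*. The highest log2 fold changes of the list were those of Itga4 in *db/db* against *db/m* (1.36 ± 0.73), of Itgb3 in *db/db*-dapa against *db/m* (1.48 ± 0.60) and of Hmmr in *db/db*-dapa against *db/db* (1.27 ± 0.65), while Itga4 was the lowest in the latter (-1.64 ± 0.73). Has1 and Has2, which make hyaluronan, were listed at 0 in all mice.

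As the counterpart of dedifferentiation, 20 genes of differentiated proximal tubule were tested. In both comparisons with *db/m*, 2 fell and none rose, where 0.699% (*db/db*) and 0.475% (*db/db*-dapa) of all genes fell. The median log2 fold changes were 0.13 and 0.36 over the list, against 0.02 and -0.02 over all genes. Kap, an androgen-dependent kidney protein, was at 29402 ± 5632 CPM in *db/m*, 2214 ± 854 in *db/db* and 5550 ± 1882 in the *db/db*-dapa mice (mean ± SD, n = 3). Cyp4b1, a cytochrome P450 gene, was at 3866 ± 406, 1160 ± 384 and 1706 ± 295 CPM. On the log2 scale Kap fell by 3.73 (SE 0.36, adjusted p = 0.00117 by edgeR) in *db/db* and by 2.41 (SE 0.34, adjusted p = 0.0133) in *db/db*-dapa, and Cyp4b1 fell by 1.74 (SE 0.25, adjusted p = 0.0106) and by 1.18 (SE 0.24, adjusted p = 0.0671). The bicarbonate transporter gene Slc4a4 had the highest log2 fold changes, 0.94 ± 0.49 in *db/db* and 1.49 ± 0.49 in the *db/db*-dapa mice, and was not called. Between *db/db*-dapa and *db/db* none of the 20 was called, the extremes being Kap (1.33 ± 0.33) and the lactate transporter gene Slc5a12 (-0.29 ± 0.28).

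Several of the markers are also made by other kidney cells, so the transcripts of such cells were measured in the same libraries. In bulk samples, fewer cells of a type and less RNA per cell cannot be told apart. Spp1, Krt8 and Krt18 are expressed in distal nephron and collecting duct, and 14 of 14 genes of those segments were tested. Their summed level was 1727, 1294 and 3298 CPM in *db/m*, 2209, 1088 and 1111 in *db/db*, and 1148, 920 and 1021 in *db/db*-dapa, with Umod, the uromodulin gene of the thick ascending limb, the most abundant. All 14 had lower fitted values in *db/db*-dapa than in *db/m*, with a median log2 fold change of -1.23, but none was called, and none in the other comparisons. Spp1 was highest in *db/db* replicate 1, where the distal sum was 2209 CPM, and lowest in *db/m* replicate 3, where it was 3298 CPM. Krt18 had a lower fitted value in *db/db*-dapa than in *db/m* (log2 fold change -1.07), as the distal genes were, 9 of 14 of which had an unadjusted p below 0.05 there, against 18.2% of all genes. The *db/m* mice and *db/db* replicate 1 had both the highest Krt18 values and the highest distal sums. Among these mice the order was not the same, as Krt18 was highest in *db/m* replicate 1, at a distal sum of 1727 CPM. Krt18 was at 41.3 CPM in *db/m* replicate 3, which had the highest distal sum. It was at 34.3 CPM in *db/db* replicate 1, which had the second-highest. The part of these cells in the marker values was not tested.

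Cd44 and Vcam1 are made by leukocytes and endothelium, and Lcn2 by neutrophils. All 13 leukocyte genes were tested, and their sum was 521, 399 and 231 CPM in *db/m*, 413, 382 and 140 in *db/db*, and 347, 183 and 106 in *db/db*-dapa, with the MHC class II chain gene Cd74 the most abundant. Members of the list differed among themselves. Ptprc, the pan-leukocyte gene, was highest in *db/db* replicates 1 and 2, as Cd44 was, at 17.0 and 20.0 CPM. C1qa (20.4 and 16.0 CPM), C1qb, C1qc, Tyrobp and Fcer1g were also highest in these mice. Cd74, Csf1r and Cd68 were instead highest in *db/m* replicate 1. Lyz2 was highest in *db/db* replicate 1, Cd3e in *db/db* replicate 2, Adgre1 in *db/db*-dapa replicate 1 and Cd79a in *db/m* replicate 2. The 7 endothelial genes, all tested, summed to 56, 57 and 133 CPM in *db/m*, 180, 200 and 63 in *db/db*, and 185, 55 and 45 in *db/db*-dapa, with Plvap the most abundant on average over the 9 mice but not in each of them. Of the 6 neutrophil genes 5 were tested, and S100a9, the most abundant, reached 37.6 CPM in *db/db* replicate 2 and 17.3 in *db/m* replicate 1. In *db/db*-dapa against *db/db*, the fitted values of Cd44 and Vcam1 were lower and that of Lcn2 was higher (log2 fold change 0.36). Lower there were 13 of 13 leukocyte genes (median log2 fold change -0.98), 7 of 7 endothelial genes (median -0.50) and 5 of 5 neutrophil genes (median -2.02). In *db/db* against *db/m*, 9 of 13 leukocyte genes (median 0.44), 7 of 7 endothelial genes (0.67) and 4 of 5 neutrophil genes (0.84) were higher. Cd44 was higher there too (0.89), while Vcam1 (-0.44) and Lcn2 (-1.08) were lower. In *db/db*-dapa against *db/m*, 12 of 13 leukocyte, 2 of 7 endothelial and 5 of 5 neutrophil genes were lower. Vcam1 (-1.11) and Lcn2 (-0.72) were lower there, and Cd44 was not (0.18). None of these genes was called in any comparison, and their part in the marker values was not tested.

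Urothelium is a known source of Krt20, and its genes were low in these libraries. Of 6 urothelial genes, Upk2 and Krt14 were listed at 0 in all 9 mice, Upk3a and Krt5 in 8 of 9, and the list summed to between 0.656 CPM in *db/db*-dapa replicate 2 and 4.08 CPM in *db/db* replicate 1. Upk1a, its most abundant gene, was at 2.05, 1.40 and 2.44 CPM in *db/m*, at 1.70, 1.40 and 1.45 in *db/db*, and at 1.14, 0.525 and 1.19 in *db/db*-dapa. It was above Krt20 in the 3 *db/db* mice, in *db/m* replicate 3 and in *db/db*-dapa replicate 3. No gene of the list was called. Krt20 was highest, at 10.5 CPM, in *db/m* replicate 2, where the urothelial sum was 1.57 CPM, and the part of such cells in the Krt20 values was not tested further.

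**Figure D4:**
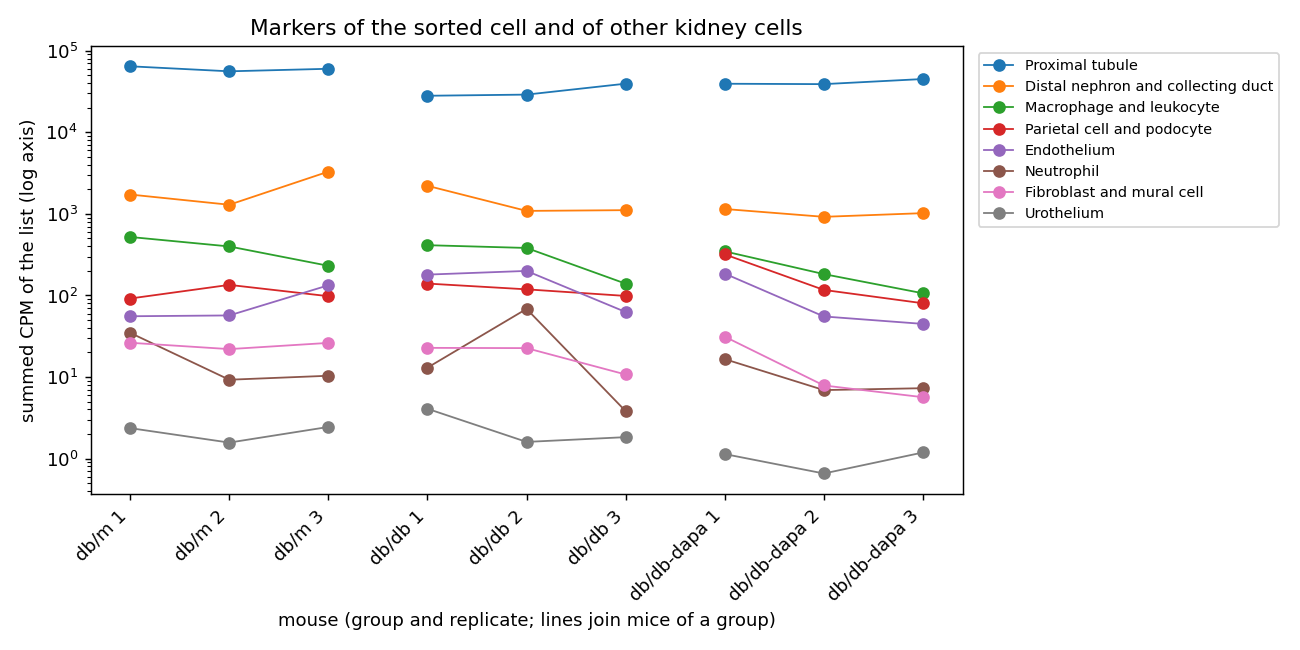
Summed level in CPM (log axis) of marker lists of the proximal tubule and of other kidney cells in each of the 9 mice. Circles are mice, coloured by list, and lines join the mice of a group. The differentiated proximal tubule list lies between 28078 and 64502 CPM in every mouse, above every other list, and the urothelial list lies at or below 4.08 CPM.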

How the data were processed

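RNA of tdTomato-positive cells sorted from the kidney cortex of 9 mice, 3 per group, had been sequenced as stranded polyA libraries in single-end mode. Per the labels and methods, the authors mapped reads to mm10 with TopHat2 2.0.13, Bowtie2 2.2.3 and SAMtools 0.1.19 and used Cufflinks 2.2.1. The deposited table is named FPKM, but its values fit estimated counts and not FPKM: 85.9% of values above 0 are exactly whole as deposited, with no tolerance, and libraries sum to different totals. How the authors obtained these estimated counts is not given in the sources used here. The values were rounded and tested as counts. Of the names, 2 were duplicated and their rows kept apart, and 6100 of 24421 rows were 0 in every mouse.

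Genes with at least 0.3 CPM in at least 2 of 9 mice were fitted in 1 model of 3 group means with edgeR 4.0.16 (quasi-likelihood test, TMM scaling, R 4.3.3), with Benjamini-Hochberg adjustment over the 15583 genes tested. The script was tested on simulated data. Levels are unrounded counts over TMM-scaled totals. The SE was derived from the F statistic. Nothing states that mice came from separate litters or runs, so p-values measure the spread between these mice. Alternatives were other scalings and filters, DESeq2 1.42.0, limma 3.58.1, fits to fewer mice and a replicate block. Permutation tests were made in Python 3.11.15 with SciPy 1.17.1.

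All 10 markers are named. Of every other list, the most abundant gene, the highest and lowest fold change in each comparison and every called gene were to be named. Those of lists with no call are given in part. Beside them stand single genes chosen after their values were seen (C1qa, C1qb, C1qc, Cd68, Csf1r, Fcer1g, Fgb, Has1, Has2, Lyz2, Nphs1, Ptprc, Slc34a1, Slc5a2, Tyrobp and the urothelial genes). A small number of genes that the rule named are not reported here. The markers and lists were chosen with earlier results of these data known. Dose, treatment time and age come from the study's methods. Coordinates and exonic lengths are from GENCODE on GRCm38, which is mm10.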

Additional observations from a re-analysis of the deposited data

How the results depend on the processing

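Of 570 fold changes of the 10 markers under other settings or without a mouse, 534 kept their direction and did not become calls, 25 changed sign and 11 became calls. DESeq2 gave no adjusted p for Lcn2 in any comparison or for Havcr1 in *db/db*-dapa against *db/db*. These are counted among the 534 by direction only. The counts of all genes called were less stable. DESeq2 called 363, 507 and 13 genes (*db/db* against *db/m*, *db/db*-dapa against *db/m*, *db/db*-dapa against *db/db*), where edgeR called 194, 164 and 0. Limma voom with sample weights called 1619 and 449 in the last pair of comparisons, no filter gave 275 in *db/db*-dapa against *db/m*, and fitting only the groups compared gave 115 in *db/db* and 630 in the *db/db*-dapa mice, each against *db/m*. Leaving out 1 mouse gave 85 to 230, 14 to 664 and 0 to 272 calls. The lowest of the first and middle ranges came without *db/m* replicate 1 and without *db/db*-dapa replicate 2, and the highest of each came without *db/db* replicate 3. The cause was not tested. Voom with sample weights also called Lcn2 (-2.10), Vcam1 (-1.34), Krt18 (-1.05) and Sox9 (-1.21) lower in *db/db*-dapa than in *db/m*, and turned Cd44 in that comparison to -0.0044 and Lcn2 in *db/db*-dapa against *db/db* to -1.26. Krt8 in the latter comparison turned to -0.0326 with upper quartile scaling and to -0.0109 with library totals only.

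Without 1 mouse, the log2 fold change of Krt8 ranged from -0.95 to 0.019 (*db/db* against *db/m*), -0.47 to 0.10 (*db/db*-dapa against *db/m*) and -0.22 to 0.74 (*db/db*-dapa against *db/db*). Against *db/m*, Havcr1 ranged from -1.14 to 1.06 in *db/db* and -0.14 to 2.05 in *db/db*-dapa, Vcam1 from -1.29 to 0.074 in *db/db*, and Cd44 from -0.23 to 0.60 in *db/db*-dapa. In *db/db*-dapa against *db/db*, Clu ranged from -0.38 to 0.0765, Lcn2 from -0.58 to 0.88, Spp1 from -0.42 to 0.14 and Vcam1 from -1.05 to 0.18. The number of correlated marker pairs was 2 to 4 without 1 mouse. It was 11 for deviations from the group means, whose p-values are too small because deviations within a group sum to 0.

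With the replicate number as a block, 185, 167 and 0 genes were called. Of the 9 pairs of mice with the same number in 2 groups, 3 deviated together over all genes (r of 0.22, 0.40 and 0.56) and the other 6 had r from -0.32 to -0.10, so the numbers were not taken to pair the mice. The block changed no marker's call, and it lowered the SE of some (in *db/db* against *db/m*, Cd44 from 0.73 to 0.40 and Krt8 from 0.45 to 0.28). Depth limits the scarce markers, with at most 12 counts in a mouse for Lcn2, 26.5 for Havcr1, 56 for Cd44 and 60 for Krt20.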

Other observations

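Immediate-early genes, which cells switch on within minutes of many stimuli, and heat shock genes were present at high levels in all groups. The 14 immediate-early and heat shock genes summed to 6330 ± 845 CPM in *db/m*, 6247 ± 2280 in *db/db* and 7242 ± 2487 in the *db/db*-dapa mice (mean ± SD, n = 3), with Jun, an AP-1 subunit, the most abundant. Of these, 1 passed the test in *db/db* against *db/m*, where 1.24% of all genes were called and 0.699% were lower. Dnajb1, a co-chaperone of HSP70, fell by 1.20 on the log2 scale in *db/db* against *db/m* (SE 0.26, adjusted p = 0.0657 by edgeR), from 246, 236 and 246 CPM to 118, 101 and 98.0 CPM. In *db/db*-dapa it was at 279, 119 and 189 CPM, a range that holds all 3 *db/m* values. Fosb had the highest log2 fold change in both comparisons with *db/m* (0.81 ± 0.48 and 0.60 ± 0.48), and Ier3 the lowest in *db/db*-dapa against *db/m* (-1.06 ± 0.37). Between *db/db*-dapa and *db/db* the extremes were Hspa1b (1.03 ± 0.40) and Nr4a1 (-0.88 ± 0.51), and neither was called.

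Among the glomerular genes, those of podocytes were highest in 1 mouse. The podocyte gene Nphs1 was at 28.4 CPM in *db/db*-dapa replicate 1, against at most 5.30 CPM in the other 8 mice, and the 7 parietal cell and podocyte genes summed to 319 CPM there, with Podxl the most abundant gene of the list. Cldn1 and Pax2, genes of parietal cells, were highest in other mice, at 73.8 CPM in *db/m* replicate 2 and 27.4 CPM in *db/db*-dapa replicate 2. The fibroblast and mural list summed to 24.8 ± 2.46 CPM in *db/m*, 18.7 ± 6.90 in *db/db* and 14.9 ± 14.2 in the *db/db*-dapa mice, led by Acta2. No gene of either list was called in any comparison.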
